A study of Mus musculus and Homo sapiens with 8 samples.

Results

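The genes described here encode the enzymes of the urea cycle and of citrulline synthesis, Cps1, Otc, Nags, Ass1, Asl, Arg2, Oat and Aldh18a1. They were taken by symbol from the deposited expression table, which listed all 8 among its 13359 distinct genes, and all 8 passed the filter on low values. RNA-seq had been carried out on crypts of the small intestine of 2-month-old, untreated C57BL/6 mice. The group labelled knockout carried the Apc Min allele (labelled APCmin+) and a deletion of Zmynd8 in the intestinal epithelium (labelled Zmynd8IEC-/-), and the control group carried the Apc Min allele alone, so both groups share that allele. Each group had 2 libraries, each made from a pool of 3 mice whose RNA was combined by mass. The sources used here name neither the Cre driver nor the deleted exons, nor what separates the pools of a group, so p-values measure only the spread between these pools. Values are FPKM, that is, read numbers divided by the length of the gene and by the size of the library.

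In the liver the urea cycle turns ammonia into urea. In the adult small intestine the mitochondrial steps are used instead to make citrulline, which enterocytes release and the kidney converts to arginine. N-acetylglutamate synthase (Nags) makes the activator of carbamoyl phosphate synthetase (Cps1), ornithine transcarbamylase (Otc) joins carbamoyl phosphate to ornithine, and that ornithine comes from glutamate through Aldh18a1 and Oat or from arginine through the mitochondrial arginase Arg2. Argininosuccinate synthetase (Ass1) and lyase (Asl), in the cytosol, turn citrulline into arginine.

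The library totals behind the values were 46551218 and 47990019 reads for replicates 1 and 2 labelled knockout, and 44718091 and 48778712 reads for Apc Min replicates 1 and 2. Zmynd8 itself stood at 7.30 and 7.65 FPKM in the knockout-labelled libraries, against 6.94 and 4.73 FPKM in the Apc Min libraries (log2 fold change 0.33, limma adjusted p = 0.293). The targeted gene was therefore not lower at the level of the whole gene, so the labels could not be checked on it and directions are given by label. Apc Min replicate 1 stood apart for some genes of the gut epithelium and of other tissues. The stem cell gene Lgr5 was at 2.74 and 3.19 FPKM in the knockout-labelled libraries, and at 14.8 and 3.48 FPKM in Apc Min replicates 1 and 2. Sox9 ran alike in Apc Min replicates 1 and 2 (20.1 and 4.57 FPKM), but Axin2 (20.6 and 20.3 FPKM) and Olfm4 (133 and 166 FPKM) did not. All 8 genes of the stem cell list had log2 fold changes below 0, as had 71.7% of all genes tested. Limma called 0 of the 8, with 4 lower at an unadjusted p under 0.05 (19.1% of all genes tested). The liver gene Alb was at 0.0521 and 0.0303 FPKM in the knockout-labelled libraries, and at 11.7 and 0.189 FPKM in Apc Min replicates 1 and 2. In pooled tissue, fewer cells of a type and less RNA per cell cannot be told apart.

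No member passed limma's threshold of adjusted p under 0.05, but the genes differed in direction along the pathway. The differences of Arg2 and Ass1 were the largest and of like size: mean FPKM in the knockout-labelled libraries was 1.98 times that of the Apc Min libraries for Arg2 and 0.496 times for Ass1. Their log2 fold changes were 0.97 and -0.86 on log2(FPKM + 1), and 0.98 and -0.99 on log2(FPKM + 0.1), so which was larger depended on the pseudocount. Otc and Nags had smaller positive values, Oat, Cps1 and Aldh18a1 lay close to the control level, and Ass1 and Asl, the cytosolic genes that make arginine, had negative values. All 6 genes of mitochondrial enzymes had positive log2 fold changes and both cytosolic genes negative ones, a split by compartment made after the values were seen and not tested. Limma called 0 of the 8 members, where it called 0.726% of the 12948 genes tested, 0.595% higher and 0.131% lower. At an unadjusted p under 0.05 there were 3 members higher (7.49% of all genes tested) and 2 lower (19.1%), and limma-voom on recovered reads also called 0 members (1.16% of all genes tested in either direction).

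**Figure D1:**
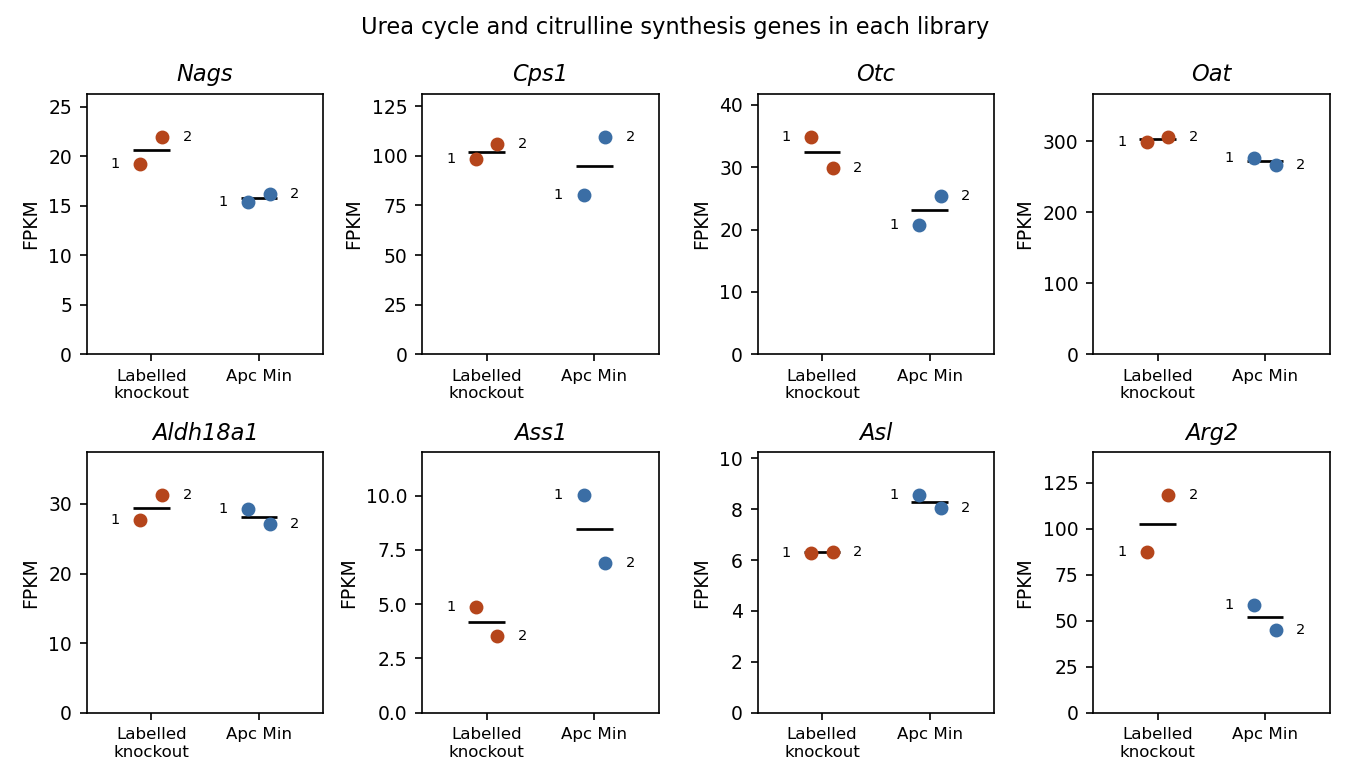
FPKM (y axis, from 0) of each gene in the 2 knockout-labelled libraries (red) and the 2 Apc Min libraries (blue); numbers beside points are replicates and bars are group means. Arg2, Otc, Nags and Oat were higher in both knockout-labelled libraries than in either Apc Min library, Ass1 and Asl lower, while Cps1 and Aldh18a1 overlapped.

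The activator gene Nags (chromosome 11, 102145513 to 102149528, plus strand, mm10) was at 19.2 and 22.0 FPKM in the knockout-labelled libraries, against 15.4 and 16.2 FPKM in the Apc Min libraries. Both knockout-labelled libraries were above both controls, and the log2 fold change was 0.36 (SE 0.11, 95% CI 0.09 to 0.63, adjusted p = 0.135 by limma). Nags shares 791 bases with the noncoding Gm11586 on the opposite strand, which stood at 1.87 and 1.57 FPKM in the knockout-labelled libraries and at 0.905 and 1.24 FPKM in the Apc Min libraries. The sources used here do not say whether strand was used in counting, so reads of the 2 genes could be shared.

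Cps1, whose product commits ammonia to the pathway (chromosome 1, 67122426 to 67231267, plus strand), was at 98.3 and 106 FPKM in the knockout-labelled libraries, against 80.5 and 109.5 FPKM in the Apc Min libraries. The groups overlapped, since Apc Min replicate 2 was the highest library and Apc Min replicate 1 the lowest. Its log2 fold change was 0.12 (SE 0.17, 95% CI -0.32 to 0.56, adjusted p = 0.670 by limma), and without Apc Min replicate 1 it was -0.10. Counting error was small beside that spread: the 20071 reads of Apc Min replicate 1 gave an exact Poisson 95% interval of 79.3 to 81.6 FPKM, and the 29811 reads of Apc Min replicate 2 one of 108 to 111 FPKM. Such intervals cover counting error only.

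Otc, which forms citrulline (chromosome X, 10252296 to 10321024, plus strand), was at 34.8 and 29.9 FPKM in the knockout-labelled libraries, against 20.7 and 25.4 FPKM in the Apc Min libraries. The groups did not overlap, with means of 32.4 ± 3.47 FPKM labelled knockout and 23.1 ± 3.32 FPKM in Apc Min (SD, n = 2 each). The log2 fold change was 0.47 (SE 0.14, 95% CI 0.11 to 0.84, adjusted p = 0.135 by limma). Otc was highest in replicate 1 of the knockout-labelled libraries, where Arg2 and Nags were highest in replicate 2.

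Oat, which interconverts glutamate semialdehyde and ornithine (chromosome 7, 132557475 to 132576398, minus strand), was the most abundant member and ranked 204 of 13359 genes by mean FPKM. It was at 299.6 and 306 FPKM in the knockout-labelled libraries, against 277 and 267 FPKM in the Apc Min libraries. The groups did not overlap, but the difference was small (log2 fold change 0.16, SE 0.11, 95% CI -0.12 to 0.43, adjusted p = 0.389 by limma). Aldh18a1, which reduces glutamate to that semialdehyde (chromosome 19, 40550257 to 40588463, minus strand), was at 27.7 and 31.2 FPKM in the knockout-labelled libraries, against 29.2 and 27.1 FPKM in the Apc Min libraries. Its groups overlapped (log2 fold change 0.06, SE 0.11, 95% CI -0.21 to 0.34, adjusted p = 0.735 by limma). Both intervals included 0, and without replicate 2 labelled knockout the value of Aldh18a1 was -0.024.

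Arg2, which splits arginine into ornithine and urea (chromosome 12, 79130788 to 79156301, plus strand), was at 87.5 and 118 FPKM in the knockout-labelled libraries, against 58.8 and 45.2 FPKM in the Apc Min libraries. The groups did not overlap, and the means were 103 ± 21.7 FPKM labelled knockout and 52.0 ± 9.66 FPKM in Apc Min (SD, n = 2 each). Its log2 fold change was 0.97 (SE 0.21, 95% CI 0.43 to 1.50, adjusted p = 0.0983 by limma). The libraries of a group differed by more than counting error: the 95% Poisson intervals were 85.2 to 89.8 and 116 to 121 FPKM in the knockout-labelled libraries, and 57.0 to 60.8 and 43.6 to 46.8 FPKM in the Apc Min libraries. In the authors' deposited table Arg2 had a log2 fold change of 0.98 and a q-value of 0.0029. It was the only member under 0.05 there, beside 1.26% of listed genes higher and 0.876% lower at that q-value, and the other 7 members each had a q-value of 1 in the authors' deposited table.

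Arg2 overlaps Vti1b by 285 bases, the noncoding Gm40462 by 7464 bases and another noncoding gene by 997 bases, all on the opposite strand. The value of Arg2 therefore carries the same doubt about strand. Vti1b, a vesicle fusion gene, was at 39.2 and 42.0 FPKM in the knockout-labelled libraries, against 42.1 and 44.8 FPKM in the Apc Min libraries, with a log2 fold change of -0.09. The noncoding Gm40462 was at 1.01 and 1.01 FPKM in the knockout-labelled libraries, against 0.473 and 0.263 FPKM in the Apc Min libraries (log2 fold change 0.56). The other noncoding gene was at 1.10 and 1.27 FPKM labelled knockout, against 0.449 and 0.802 FPKM in Apc Min (0.44). Arg1, the cytosolic arginase of liver and macrophages, did not pass the filter on low values: it was at 0.654 and 0.367 FPKM in the knockout-labelled libraries, against 18.6 and 0.861 FPKM in Apc Min replicates 1 and 2.

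Ass1, which joins citrulline and aspartate (chromosome 2, 31470270 to 31520670, plus strand), was at 4.86 and 3.51 FPKM in the knockout-labelled libraries, against 10.0 and 6.88 FPKM in the Apc Min libraries. These values rested on 369 and 275 reads in the knockout-labelled libraries, against 730 and 547 reads in the Apc Min libraries. Both knockout-labelled libraries were below both controls, at a fold of 0.496 between the means, and the log2 fold change was -0.86 (SE 0.22, 95% CI -1.43 to -0.28, adjusted p = 0.121 by limma). Without Apc Min replicate 1, the library with the most Ass1, it was -0.61.

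Asl, which releases arginine from argininosuccinate (chromosome 5, 130011498 to 130024331, minus strand), was at 6.28 and 6.31 FPKM in the knockout-labelled libraries, against 8.54 and 8.03 FPKM in the Apc Min libraries. The Poisson intervals of the 2 libraries of a group overlapped in both groups, and the groups themselves did not. The log2 fold change was -0.35 (SE 0.10, 95% CI -0.61 to -0.09, adjusted p = 0.133 by limma).

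In all, 4 members were higher in both knockout-labelled libraries than in either control, as were 14.9% of all genes tested, and 2 members were lower, as were 48.5%. Of all genes tested 28.3% had a log2 fold change above 0 and 71.7% one below 0, with a median of -0.15, where the median over the members was 0.14. Median-ratio scaling moved the median of all genes by 0.15, and 6 members had positive and 2 negative values as deposited, and also under that scaling and quantile normalization. Relative to the median of all genes, Arg2 lay at 1.12, Otc at 0.63 and Nags at 0.51. Oat lay at 0.31, Cps1 at 0.27 and Aldh18a1 at 0.21, each farther from that median than Asl at -0.19, and Ass1 lay at -0.70. The log2 fold change of Asl was -0.35 as deposited, -0.20 under median-ratio scaling and -0.18 under quantile normalization. Leaving out Apc Min replicate 1 gave 1.15 for Arg2, 0.33 for Otc, 0.32 for Nags, 0.18 for Oat, 0.11 for Aldh18a1 and -0.31 for Asl as log2 fold changes, so that Cps1 was the member whose sign depended on that library.

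**Figure D2:**
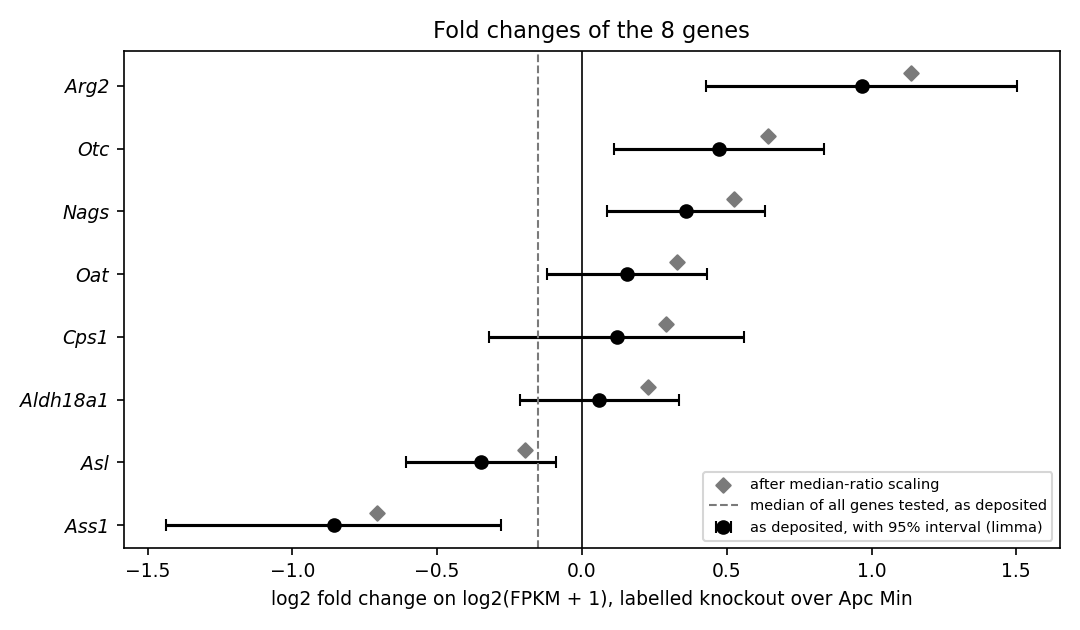
Log2 fold change on log2(FPKM + 1), knockout-labelled libraries over Apc Min (x axis), for each gene (rows): black points with 95% limma intervals are the values as deposited, grey diamonds the values after median-ratio scaling, and the dashed line the median of all genes tested. Arg2 lies highest at 0.97 and Ass1 lowest at -0.86, and no sign changes with the scaling.

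Ordered by mean FPKM in the knockout-labelled libraries, the genes ran Oat, Arg2, Cps1, Otc, Aldh18a1, Nags, Asl and Ass1. In that group the ranges of Arg2 and Cps1 overlapped, as did those of Otc and Aldh18a1. In the Apc Min libraries the order was Oat, Cps1, Arg2, Aldh18a1, Otc, Nags, Ass1 and Asl, and the ranges of Ass1 and Asl were the ones that overlapped. Oat made up 51.8% and 49.1% of the members' summed FPKM in the knockout-labelled libraries, against 55.4% and 52.8% in the Apc Min libraries. Arg2 made up 15.1% and 19.0% in the knockout-labelled libraries, against 11.8% and 8.94% in the Apc Min libraries.

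Ratios between genes of the same library do not depend on a scaling by a single factor per library, but quantile normalization can change them. Cps1 exceeded Ass1 by a factor of 20.2 and 30.2 in the knockout-labelled libraries, against 8.04 and 15.9 in the Apc Min libraries, without overlap. The Ass1 to Asl ratio was 0.774 and 0.556 in the knockout-labelled libraries, against 1.17 and 0.856 in the Apc Min libraries, so Ass1 was below Asl in both knockout-labelled libraries and in Apc Min replicate 2. The Cps1 to Otc ratio was 2.82 and 3.54 in the knockout-labelled libraries, against 3.88 and 4.31 in the Apc Min libraries. The groups overlapped in the Arg2 to Otc ratio (2.51 and 3.95 labelled knockout, 2.84 and 1.78 in Apc Min) and in the Oat to Aldh18a1 ratio (10.8 and 9.81 labelled knockout, 9.47 and 9.86 in Apc Min). With 2 libraries a group these ratios were not tested.

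**Figure D3:**
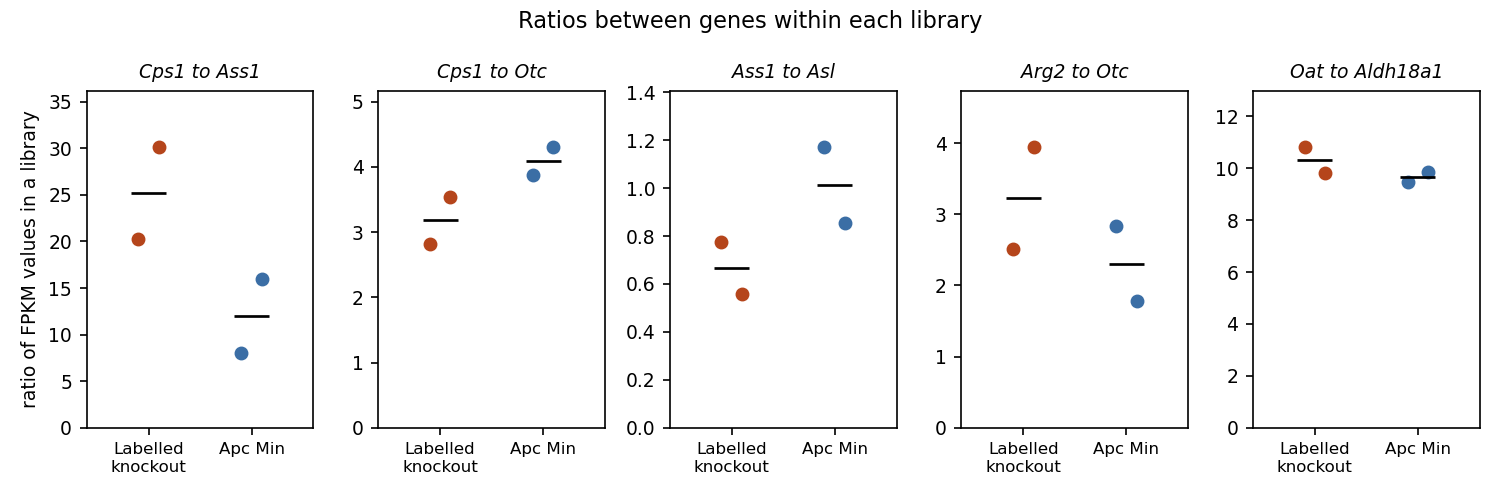
Ratio of the FPKM values of paired genes within each library (y axes, from 0), labelled knockout in red and Apc Min in blue, with bars at group means. The Cps1 to Ass1 ratio is higher in both knockout-labelled libraries, the Cps1 to Otc and Ass1 to Asl ratios are lower, and the remaining pairs overlap.

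RefSeq promoter windows, from 250 bases before to 50 after a start site (GRCm38.p6), matched 5 of the 8 genes. The windows of Ass1, Otc and Nags are shown because these had the largest absolute log2 fold changes among the matched genes and ran in opposite directions. Each reads 5′ to 3′ on the gene's strand, and capitals mark matches on either strand to 6 motifs. The TATA box was searched as TATAAA and the CCAAT box by the letters of its name. The GC box was searched as GGGCGG, the E-box as CACGTG, part of the site of HNF4 receptors as AAAGTNCA and a CDX site as TTTATG. The windows lie at chr2:31470020-31470319 for Ass1, chrX:10252055-10252354 for Otc and chr11:102145263-102145562 for Nags, all on the plus strand.
Ass1: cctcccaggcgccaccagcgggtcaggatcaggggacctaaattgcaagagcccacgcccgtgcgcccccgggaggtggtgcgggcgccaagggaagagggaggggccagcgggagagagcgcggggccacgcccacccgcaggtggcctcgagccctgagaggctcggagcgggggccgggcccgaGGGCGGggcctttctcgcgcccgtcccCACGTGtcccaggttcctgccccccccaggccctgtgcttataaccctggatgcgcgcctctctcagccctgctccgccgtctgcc
Otc: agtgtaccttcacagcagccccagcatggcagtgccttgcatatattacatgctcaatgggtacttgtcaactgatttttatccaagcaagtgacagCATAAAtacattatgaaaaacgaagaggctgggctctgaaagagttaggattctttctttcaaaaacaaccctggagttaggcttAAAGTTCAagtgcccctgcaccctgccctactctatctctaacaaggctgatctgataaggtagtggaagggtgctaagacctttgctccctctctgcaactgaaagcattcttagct
Nags: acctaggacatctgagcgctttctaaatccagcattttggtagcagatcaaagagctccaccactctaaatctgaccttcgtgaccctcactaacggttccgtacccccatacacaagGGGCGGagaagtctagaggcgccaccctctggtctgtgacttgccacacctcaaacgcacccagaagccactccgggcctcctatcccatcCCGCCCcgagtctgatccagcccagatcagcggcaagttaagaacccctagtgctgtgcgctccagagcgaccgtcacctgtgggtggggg

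The Ass1 window held a GC box and an E-box, at 74% G and C bases. The Otc window, at 44.3%, held the HNF4 motif starting 68 bases before the start site and a CDX match on the opposite strand. The Nags window, at 57.7%, held GC boxes on both strands. Of 32851 RefSeq windows of this length, 35.7% held a GC box, 7.15% an E-box, 4.12% the HNF4 motif and 11.9% the CDX match, and the median G and C content was 52.7%. The TATA box letters stood in 13.6% and the CCAAT box letters in 37.4% of these windows, and in none of the 3 printed. None of the printed matches overlap, and a match in letters is not a measured binding site. Transcripts of the factors themselves did not share a direction: Hnf4a was at 199 and 176 FPKM in the knockout-labelled libraries, against 219 and 268 FPKM in the Apc Min libraries (log2 fold change -0.37, limma adjusted p = 0.193), and Hnf4g at 132 and 130.3 FPKM labelled knockout, against 93.4 and 76.3 FPKM in Apc Min (0.63, limma adjusted p = 0.0941). Cdx2 was at 69.0 and 58.1 FPKM labelled knockout, against 71.0 and 81.2 FPKM in Apc Min (-0.26, limma adjusted p = 0.272).

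Genes of glutamate and proline metabolism, which feed and drain the same intermediates, were mixed. Glud1, the mitochondrial glutamate dehydrogenase that releases ammonia, was at 252 and 334 FPKM in the knockout-labelled libraries, against 141 and 117 FPKM in the Apc Min libraries (log2 fold change 1.17, limma adjusted p = 0.0726). Aldh4a1, which oxidises the semialdehyde back to glutamate, was at 51.1 and 72.2 FPKM in the knockout-labelled libraries, against 22.5 and 34.3 FPKM in the Apc Min libraries (1.10, limma adjusted p = 0.125). The cytosolic and mitochondrial aspartate aminotransferases Got1 and Got2 had log2 fold changes of 0.50 and -0.41. Of 12 genes tested 4 had positive and 8 negative values, with a median of -0.091, limma called 0 (4 higher and 3 lower at an unadjusted p under 0.05) and limma-voom 0. The balance turned with the scaling: median-ratio scaling made 7 positive, with a median of 0.076, and quantile normalization 6.

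No gene on the list of arginine, ornithine and polyamine use passed the test. That list also holds antizyme genes, which regulate Odc1, and genes of creatine metabolism. Odc1, which takes ornithine into polyamines, was at 61.2 and 72.8 FPKM in the knockout-labelled libraries, against 58.7 and 65.9 FPKM in the Apc Min libraries. Smox and Sat1, which oxidise and acetylate polyamines, had log2 fold changes of -1.21 and -0.60, and spermidine synthase Srm one of -0.45. Smox was at 5.66 and 5.04 FPKM labelled knockout, against 19.1 and 9.64 FPKM in Apc Min replicates 1 and 2. The creatine kinase gene Ckb and the agmatinase gene Agmat had positive values of 1.06 and 0.68. Ckb was at 99.3 and 148.5 FPKM labelled knockout, against 49.6 and 67.2 FPKM in Apc Min. Ddah1, which recovers citrulline from methylated arginine, was at 8.60 and 3.62 FPKM in the knockout-labelled libraries, against 16.6 and 17.2 FPKM in the Apc Min libraries (-1.42, limma adjusted p = 0.146). Nos2, the inducible synthase that makes nitric oxide and citrulline, overlapped between the groups, at 119 and 69.5 FPKM labelled knockout and 53.2 and 145.5 FPKM in Apc Min. Of 19 genes tested 6 had positive and 13 negative values, with a median of -0.14, limma called 0 (2 higher and 7 lower at an unadjusted p under 0.05) and limma-voom 0; median-ratio scaling made 9 positive, and quantile normalization 10. The shares above and below 0 as deposited were close to the 28.3% and 71.7% of all genes tested.

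Carriers ran in both directions. The mitochondrial ornithine-citrulline exchanger Slc25a15 was at 95.7 and 93.5 FPKM in the knockout-labelled libraries, against 72.6 and 84.4 FPKM in the Apc Min libraries (log2 fold change 0.27, limma adjusted p = 0.213). Slc25a13, which exports the aspartate that Ass1 uses, was at 4.51 and 4.11 FPKM in the knockout-labelled libraries, against 5.59 and 5.73 FPKM in the Apc Min libraries (-0.33, limma adjusted p = 0.165). Slc7a7 and its partner Slc3a2, which release basic amino acids at the basal side, had values of 0.41 and 0.67, and Slc7a1, a basic amino acid importer, -0.33. Of 12 carriers tested 7 had positive and 5 negative values, with a median of 0.12, beside 28.3% and 71.7% of all genes tested. Median-ratio scaling and quantile normalization each also gave 7 positive. Limma called 0 and limma-voom 0. At an unadjusted p under 0.05 limma had 3 in each direction, beside 7.49% of all genes tested higher and 19.1% lower. Of 6 genes of ammonia supply and mitochondrial deacylases 1 was positive as deposited, Glud1, but median-ratio scaling made 5 positive and quantile normalization all 6. None of the 13 genes on the list of linked transcription factors passed limma, and limma-voom called 0. That list also holds the coactivator Ppargc1a, the pseudokinase Trib3 and Chac1, which are not transcription factors. At an unadjusted p under 0.05 limma had 4 higher (Hnf4g, Cebpb, Ppargc1a and Trib3) and 0 lower, beside the same shares of 7.49% and 19.1%.

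**Figure D4:**
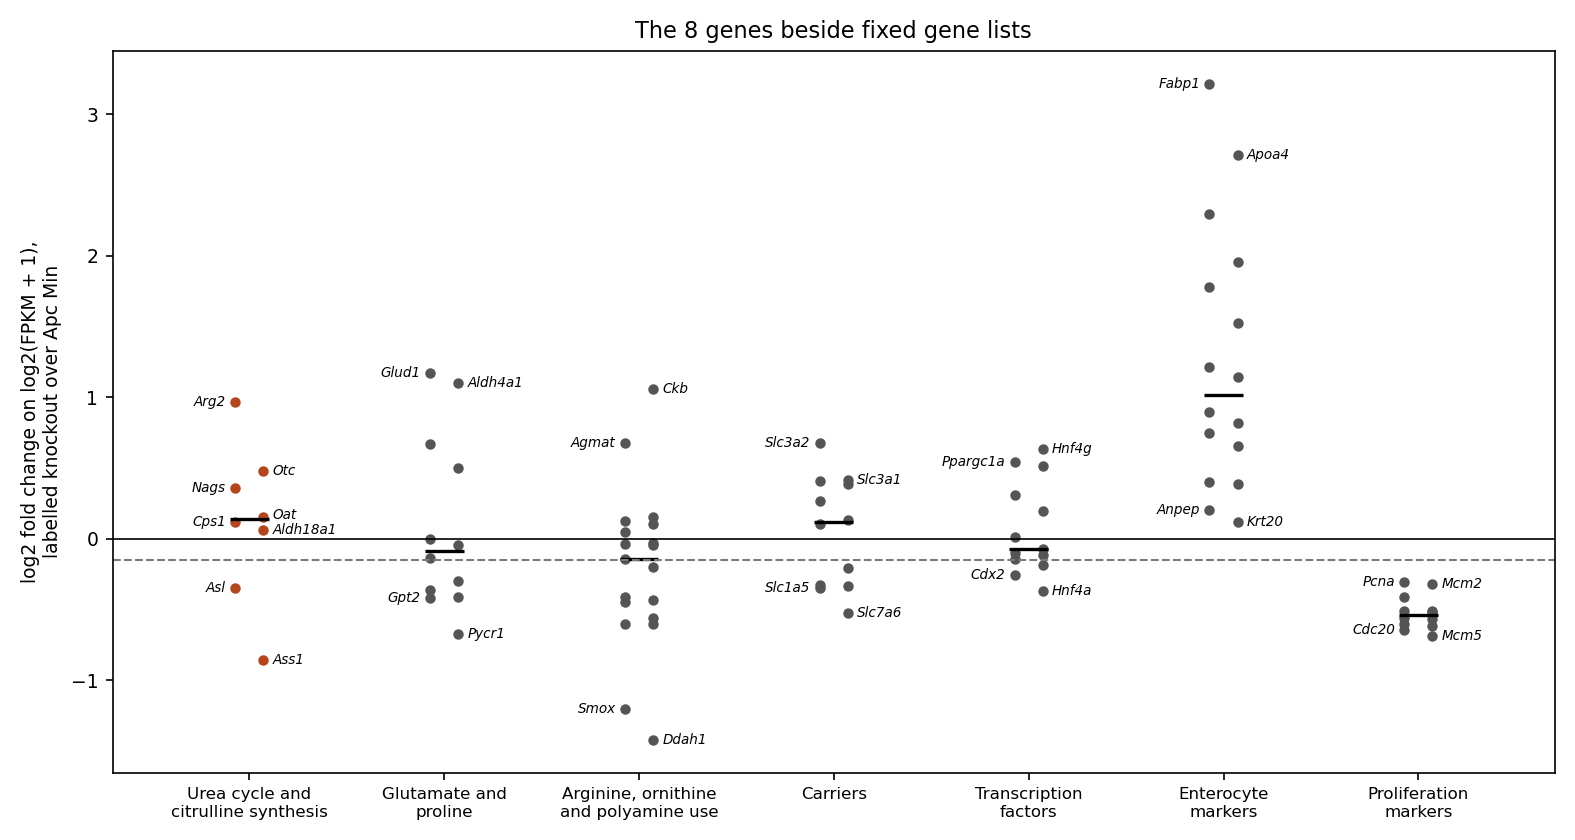
Log2 fold change on log2(FPKM + 1), knockout-labelled libraries over Apc Min (y axis), for the 8 genes (red) and the genes of fixed lists (grey); short bars are list medians, the solid line is 0 and the dashed line the median of all genes tested at -0.15. The 8 genes spread from -0.86 to 0.97, the 16 enterocyte markers all lie above 0 (15 after quantile normalization) and the 12 proliferation markers all lie below it.

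Markers of cell type and gut region also differed in sign between lists. Their counts stand beside 28.3% positive and 71.7% negative over all genes tested, of which limma called 0.595% higher and 0.131% lower. At an unadjusted p under 0.05 limma had 7.49% of all genes tested higher and 19.1% lower, and limma-voom called 1.16% in either direction. All 16 enterocyte markers had positive values (median 1.02; 15 under quantile normalization), limma called 3 higher and 0 lower (5 by limma-voom), none was at 0, and their summed FPKM was 23945 and 27654 in the knockout-labelled libraries, against 15127 and 17433 in the Apc Min libraries. All 12 proliferation markers were negative (median -0.54), of which limma called 0 (11 lower at an unadjusted p under 0.05, and 0 by limma-voom), with sums of 189 and 190.2 FPKM labelled knockout and 281 and 258 FPKM in Apc Min. The 8 markers of the proximal small intestine, 6 of 7 tested positive with 0 called by limma (5 higher at an unadjusted p under 0.05) and 1 by limma-voom, summed to 1019 and 1750 FPKM labelled knockout, against 334 and 189.6 FPKM in Apc Min. That sum counts Fabp1 and Lct of the enterocyte list again. Fabp1 was at 609 and 1107 FPKM labelled knockout, against 128 and 59.8 FPKM in Apc Min. Lct was at 174 and 293 FPKM labelled knockout, against 84.7 and 39.1 FPKM in Apc Min. The negative marker was Slc40a1 (-1.64). Onecut2, which was not tested, was at 0.201 and 0.227 FPKM labelled knockout, against 4.18 and 0.246 FPKM in Apc Min. The 6 ileal markers, 5 negative, summed to 3095 and 594 FPKM labelled knockout, against 2163 and 8900 FPKM in Apc Min, so replicate 2 of each group was at an extreme. Paneth cell markers, all 7 negative with 2 called lower by limma and 4 called by limma-voom, summed to 4479 and 6362 FPKM labelled knockout, against 7400 and 9589 FPKM in Apc Min. Liver and pancreas markers matter here because the liver holds the whole cycle: 3 of 8 were in the table, and they summed to 3.96 and 1.22 FPKM labelled knockout, against 35.1 and 10.9 FPKM in Apc Min replicates 1 and 2. The largest part of the Apc Min sums was Tat, at 21.4 and 9.42 FPKM, against 2.04 and 0.272 FPKM labelled knockout. Alb was at 11.7 FPKM in Apc Min replicate 1 but at 0.189 FPKM in replicate 2. Ttr was at 1.96 and 1.26 FPKM in Apc Min, against 1.86 and 0.922 FPKM labelled knockout. The part of these markers in the members' values was not tested. Macrophages can express Arg1, Ass1 and Nos2. Of their 8 markers 2 had positive and 6 negative values, with a median of -0.13, beside 71.7% negative over all genes tested, 4 were positive after median-ratio scaling (median 0.012) or quantile normalization, and none was at 0. They summed to 151 and 131 FPKM labelled knockout and 165 and 147 FPKM in Apc Min.

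Among all genes tested, those with profiles over the 4 libraries nearest to Arg2 by Euclidean distance on centred log2(FPKM + 1) values were Dgat2, a triglyceride synthesis gene (distance 0.0651), Mfsd7b (0.0706) and Bpnt1 (0.0707). Dgat2 was at 127.5 and 173 FPKM in the knockout-labelled libraries, against 86.6 and 63.0 FPKM in the Apc Min libraries. Those nearest to Ass1 were Rin2 (0.0325), Eml2 (0.0506) and Ppl (0.0627). Rin2 was at 6.19 and 4.44 FPKM in the knockout-labelled libraries, against 12.3 and 8.74 FPKM in the Apc Min libraries. With 4 libraries this is a description of likeness only.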

How the data were processed

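Per the file headers, the authors deposited 1 value per gene and library, group means, log2 fold changes, and p-values and q-values from a test that the sources used here do not name. No unit is named, and the deposited values were read as FPKM. This reading rests on whole reads, within 0.002, at a length of whole bases and 1 total per library, for 13359 of 13359 genes. The shortest length that fitted was used, so the recovered reads and length of some genes may be too low by a common factor. The submitters' processing notes name HISAT2, BWA, SICER, mm10 and hg38 without roles; the sources used here name no counting tool, annotation or strand setting. Exact repeats (168 of 13527 entries) were used once. The 4 ChIP-seq libraries from the colorectal cancer line HCT116 were not analysed here.

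The test was run with limma 3.58.1 (R 4.3.3) over the 12948 genes that reached 1 FPKM in 2 or more libraries. Values were log2(FPKM + 1) and genotype was the only term, with a variance trend, robust moderation and Benjamini-Hochberg adjustment over all genes tested, at a threshold of 0.05. This scale understates the change of low genes. Residual degrees of freedom were 2. The fit was tested on simulated normal values whose spread was that of genes of like level, which does not cover a single outlying library. Named genes are the 8 members, Zmynd8, genes of fixed lists written from textbook knowledge, genes overlapping a member, and the 3 nearest profiles of the 2 members with the largest change. The members and lists were chosen with earlier results of these data known. Lists are described by counts and medians, without a test, and 1 gene of the glutamate and proline list is not reported here. Alternatives were other pseudocounts, filters and scalings, limma without the trend, limma-voom on recovered reads, a replicate block, and leaving out each library.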

Additional observations from a re-analysis of the deposited data

How the results depend on the processing

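Over 13 alternatives no member passed the threshold. The lowest adjusted p of any member was 0.0581, for Ass1 without Apc Min replicate 2. Arg2 ranged from 0.75 to 1.18 (log2 fold change, adjusted p 0.0841 to 0.554), Ass1 from -1.10 to -0.54 (0.0581 to 0.572), Otc from 0.33 to 0.64 and Nags from 0.27 to 0.52, and Asl and Oat also kept their signs under all of them. Leaving out single libraries reversed Cps1 (-0.10 without Apc Min replicate 1; range to 0.34) and Aldh18a1 (-0.024 without replicate 2 labelled knockout; range to 0.14). The median of the members was 0.31 after median-ratio scaling, and with a library left out ranged from 0.10 to 0.23. The median of all genes tested was -0.092 on log2(FPKM + 5), -0.0078 with median-ratio scaling and -0.024 with quantile normalization. The limma test called 94 genes over all, against 1 with no filter on low values, 2 when a mean of 5 FPKM was required, 50 without the trend, 150 by limma-voom on recovered reads, and 0 to 616 with a library left out, 616 being without Apc Min replicate 2 and 0 without either library labelled knockout. Where a library is left out, the lone library of its group is assumed to vary like the other group. With the replicate block 0 genes were called, and 0 members; labels share numbers only, and the difference between replicates correlated at 0.0452 between the groups. Counting error limits Ass1 most, at 275 reads in its lowest library.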
